A study of Mus musculus with 18 samples.

Results

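The step from DN2 to DN3 in the adult thymus was examined by setting the 3 arrays titled Adult DN3 against the 3 arrays titled Adult DN2, 6 of the 18 arrays of the series, over all 22626 probe sets. The series holds 3 arrays each of ETP (early thymic progenitor), DN2 and DN3 thymocytes from adult and from fetal C57BL/6 mice, hybridized to the Affymetrix Mouse 430A 2.0 chip. Both adult groups are labelled as cells of female C57BL/6 mice of 4 to 6 weeks with no allele or treatment named, a label that 2 of the DN3 arrays went against (below). After depletion of lineage-positive cells, DN2 cells were sorted as CD44+CD25+ and DN3 cells as CD44-CD25+, and RNA of 80000 cells was extracted per population. Per the methods, material of 4 sorts was pooled for each adult array, so that no array stands for a single mouse. The fetal DN2 and DN3 arrays, used below for comparison, came from E14.5 embryos according to the labels, whereas the study's text gives a later embryonic day, and were sorted with the same gates. The labels call the arrays of a group biological replicates and the methods call them technical. The p-values and SEs measure the spread between arrays of a group, pooled over the 6 groups of the series. This spread may be technical, and the pooled value need not match that of the adult DN2 and DN3 arrays. Each value is a log2 GCRMA signal from which the median of that probe set over the 18 arrays was subtracted. A value of 0 is therefore that median and not absence of signal, and values of different genes cannot be ranked as levels.

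DN2 and DN3 are successive stages of CD4- CD8- thymocytes that differ in the surface adhesion receptor CD44, while CD25, the alpha chain of the IL-2 receptor, is present on both. During this step progenitors give up the option of other blood lineages, rearrange the T cell receptor beta locus with the RAG recombinase, and place the beta chain with the invariant pre-Tα chain and CD3 in the pre-T cell receptor. Notch signals from the thymic stroma and the E protein transcription factors sustain the step, and Id proteins restrain E proteins once the receptor signals.

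The check of the arrays against their labels came first. *Xist*, the RNA that coats the inactive X chromosome and is made in female cells, stood at 1.02, -1.45 and 0.70 in the adult DN2 arrays and at 1.59 in adult DN3 replicate 1, but at -11.28 and -11.34 in adult DN3 replicates 2 and 3. The Y-linked *Uty* stood at -3.64, 0.05 and -2.08 in DN2 and at -0.82, 1.59 and 1.61 in DN3, and *Kdm5d* at -0.96, 0.76 and -1.92 against -0.48, 1.22 and 1.10. *Eif2s3y*, also Y-linked, stood at -0.44, 0.50 and -1.49 against -0.01, 1.29 and 1.15. The arrays labelled adult DN3 replicates 2 and 3 thus went against the label female, and *Xist* separated them from the other 4 arrays. Among the DN2 arrays, replicate 2 had the lowest *Xist* value and the highest of these Y-linked values. Whether the other 4 arrays fit the label cannot be read from centred values. DN3 results were accordingly also computed without replicate 3, and with replicate 1 as the lone DN3 array. The gate markers were checked next. *Cd44* stood at -0.97, -0.03 and 0.44 in DN2 and at -7.97, -7.84 and -0.86 in DN3. The array labelled adult DN3 replicate 3 thus lay within the DN2 arrays for the gene whose protein separates the gates, and 6.98 log2 units above the nearer of the other two DN3 arrays. The second *Cd44* probe set moved little (-0.26 to 0.30 in all 6 arrays). *Il2ra*, which encodes CD25, stood at 0.08, 0.76 and -0.10 in DN2 and at 0.89, -0.08 and 0.28 in DN3, with overlapping arrays. Array medians lay between -0.09 and 0.02, and the number of arrays limits the precision of what follows.

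The 3 DN3 arrays all lay above the 3 DN2 arrays for 1344 probe sets (5.94%) and all below them for 1139 (5.03%). Separation in either direction has a probability of 0.1 for 3 against 3 arrays that do not differ. These shares are near that value and are no evidence of change by themselves. Far fewer passed the test (limma, Benjamini-Hochberg adjusted p under 0.05 over all probe sets, at least 1.8-fold, spread pooled over the 18 arrays). Higher in DN3 were 144 probe sets (0.636%) of 116 named genes, and lower were 66 (0.292%) of 57 named genes. The median difference was 2.01 among the rises and -1.99 among the falls, and 73 and 33 of them differed at least 4-fold. Taking 1 probe set per gene, 95 of 12393 genes were called higher (0.767%) and 40 lower (0.323%), and the median difference over all genes was -0.01. Changed amounts per cell and a changed share of cells of a kind cannot be told apart in such bulk RNA.

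The counts turned on single arrays. Without DN3 replicate 3 the calls were 219 higher (0.968%) and 301 lower (1.33%), and 136 of the 144 and 63 of the 66 were among them. The rises numbered 71 without DN3 replicate 2 and between 121 and 205 without any of the other 4 arrays. The falls numbered 201, 24 and 19 without DN2 replicates 1, 2 and 3, and 17 and 7 without DN3 replicates 1 and 2. Leaving out a fetal array, which enters only through the pooled spread, gave 106 to 154 rises, and the falls numbered 35, 36, 35 and 38 without fetal DN2 replicate 3 and fetal DN3 replicates 1, 2 and 3. The replicate numbers passed the correlation rule used for pairing, and with the number as a block 210 probe sets were called higher (0.928%) and 142 lower (0.628%). However, *Xist* stood at -1.45 and 0.70 in DN2 replicates 2 and 3 and at -11.28 and -11.34 in DN3 replicates 2 and 3. Arrays of the same number therefore need not share animals, and results with the block are those of an alternative fit. With the 6 arrays alone, 2 probe sets were called higher and 0 lower, although 1414 and 1060 had an unadjusted p under 0.05 in the fit to 18 arrays. With DN3 replicate 1 as the lone DN3 array, assumed to vary like the other groups, 359 were called higher and 404 lower.

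**Figure D1:**
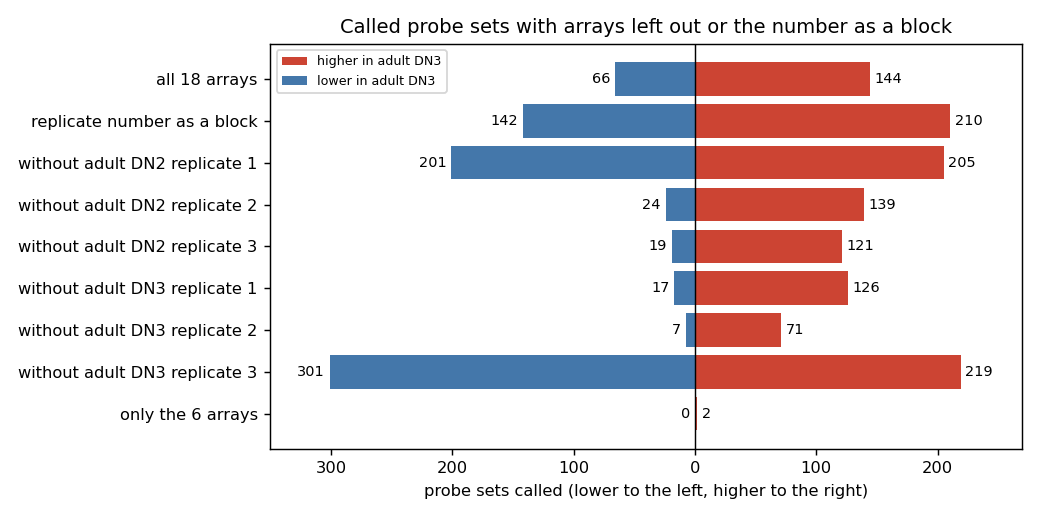
Number of probe sets called higher (bars to the right) or lower (bars to the left) in adult DN3 than in adult DN2 when single arrays are left out, when the replicate number is a block, and with the 6 arrays alone. With 1 array left out, calls of lower probe sets ranged from 7 without DN3 replicate 2 to 301 without DN3 replicate 3, while 66 were called from all arrays and 0 from the 6 arrays alone.

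Among the genes of the pre-T cell receptor, *Ptcra*, which encodes the pre-Tα chain, stood at -0.34, -0.39 and -1.85 in DN2 and at 4.63, 4.05 and 3.19 in DN3. All 3 DN3 arrays lay above every DN2 array, with replicate 3 lowest among them. The gain was 4.81 ± 0.67 (SE, 28.1-fold, limma adjusted p = 0.00401). *Zap70*, the kinase that docks on phosphorylated CD3 and zeta chains, stood at 0.32, 1.30 and 0.32 in DN2 and rose to 2.63, 3.63 and 2.88, a gain of 2.40 ± 0.31 (adjusted p = 0.00249), while its second probe set did not move. These were the 2 of 20 measured members of the list of receptor and proximal signalling genes that were called higher, with 0 called lower and a list median of 0.53 beside -0.01 over all genes. The CD3 delta gene *Cd3d* had a difference of 3.34 (adjusted p = 0.0714) and *Cd3e* of 1.64 (adjusted p = 0.109), so that neither was called. *Cd3e* was called without DN3 replicate 3 (adjusted p = 0.0259) and with the replicate block (adjusted p = 0.0488).

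The recombinase gene *Rag1* stood at -0.10, -0.65 and 0.09 in DN2 and at 1.78, 2.33 and 2.06 in DN3. The groups did not overlap, and the gain was 2.28 ± 0.43 (4.86-fold, adjusted p = 0.0240). Its partner *Rag2* differed by 0.94 and was not called. *Rag1* was the 1 called of 11 measured genes of recombination and end joining (list median 0.24), and its call was lost without DN2 replicate 2 or DN3 replicate 2 (highest adjusted p = 0.125) and with DN3 replicate 1 as the lone DN3 array. *Trgv4*, a variable segment of the T cell receptor gamma locus, stood at -0.30, 0.00 and -0.03 in DN2 and at 6.65, 6.89 and 5.21 in DN3 (6.36 ± 0.31, 82.1-fold, adjusted p = 2.79e-07). Of its 3 probe sets only that one moved, and the other two had differences of -0.18 and -0.31.

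Among receptors of the cell surface, *Cd28*, the costimulatory receptor of T cells, stood at 3.03, -0.28 and 0.60 in DN2 and at 7.61, 8.10 and 6.99 in DN3. DN2 replicate 1 was the highest DN2 array, and it still lay below every DN3 array. The gain was 6.45 ± 0.59 (87.4-fold, adjusted p = 0.000141). *Ccr9*, the receptor for the thymic chemokine CCL25, stood at -0.39, -1.07 and 0.15 in DN2 and at 4.33, 4.26 and 2.19 in DN3, so that replicate 3 gained least (4.03 ± 0.60, adjusted p = 0.00610). It was the 1 called of 15 chemokine and homing receptors. Of its further probe sets, 1 was called (3.52) and 1 was not (2.61, limma adjusted p = 0.0762). Among 25 integrins and adhesion genes, *Nrp1*, a co-receptor for semaphorins and VEGF, gained 4.48 ± 0.54 and the αE integrin gene *Itgae* 2.01 ± 0.40, with 0 called lower. *Itgae* lost its call without any of DN2 replicates 2 and 3 and DN3 replicates 1 and 2 (highest adjusted p = 0.168). Of 26 growth factor and cytokine receptors the TGF-β receptor gene *Tgfbr1* was higher by 1.05 ± 0.20, on 1 of its 3 probe sets, and *Il17rb*, a receptor for IL-25, was lower by -1.05 ± 0.20. With DN3 replicate 1 as the lone DN3 array the calls of *Tgfbr1*, *Il17rb* and *Itgae* were lost (0 of 26 receptors called), as were those of *H2-Q2* and *H3c4* described below.

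The windows from 250 bases before to 50 bases after the annotated start (RefSeq, GRCm38.p6) are shown for 3 rising T cell genes whose windows hold an E protein motif, CAGCTG or CAGGTG (with its reverse complement CACCTG), and for *Id3*, whose window holds neither. The motif letters are in capitals. They lie at chr17:46763663-46763962 on the minus strand for *Ptcra*, chr2:101649483-101649782 on the minus strand for *Rag1*, chr9:123766961-123767260 on the plus strand for *Ccr9* and chr4:136143572-136143871 on the plus strand for *Id3*.
Ptcra: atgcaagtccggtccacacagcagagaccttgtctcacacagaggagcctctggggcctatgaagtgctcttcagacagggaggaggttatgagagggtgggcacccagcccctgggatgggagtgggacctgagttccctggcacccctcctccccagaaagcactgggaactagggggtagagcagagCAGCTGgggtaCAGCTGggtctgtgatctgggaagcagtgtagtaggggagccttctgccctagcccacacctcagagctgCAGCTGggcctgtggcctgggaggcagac
Rag1: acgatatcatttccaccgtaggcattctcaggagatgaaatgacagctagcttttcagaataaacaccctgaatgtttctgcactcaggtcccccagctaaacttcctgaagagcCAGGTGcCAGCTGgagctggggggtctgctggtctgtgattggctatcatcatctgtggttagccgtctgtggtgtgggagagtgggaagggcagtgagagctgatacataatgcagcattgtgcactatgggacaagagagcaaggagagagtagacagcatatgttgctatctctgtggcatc
Ccr9: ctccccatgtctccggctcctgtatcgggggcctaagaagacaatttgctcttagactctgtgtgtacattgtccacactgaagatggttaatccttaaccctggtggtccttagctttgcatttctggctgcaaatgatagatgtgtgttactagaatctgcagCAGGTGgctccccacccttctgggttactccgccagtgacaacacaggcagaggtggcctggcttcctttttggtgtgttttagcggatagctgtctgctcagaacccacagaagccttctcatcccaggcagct
Id3: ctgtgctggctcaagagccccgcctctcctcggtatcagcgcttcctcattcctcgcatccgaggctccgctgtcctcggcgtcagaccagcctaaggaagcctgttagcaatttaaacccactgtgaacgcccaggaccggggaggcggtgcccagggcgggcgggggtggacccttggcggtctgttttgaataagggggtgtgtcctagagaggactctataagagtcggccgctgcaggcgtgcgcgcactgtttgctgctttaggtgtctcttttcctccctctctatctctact
*Ptcra* held 3 copies of CAGCTG, and *Rag1* held 1 copy of each motif. CAGCTG was present in 25 of 100 windows of 74 genes called higher, in 4 of 43 windows of 34 genes called lower (9.30%) and in 16.0% of the 12566 windows of measured genes. CAGGTG or its reverse complement was present in 24 windows of the rises, in 6 of the falls (14.0%) and in 19.3% of those of measured genes. Of the 32851 full-length windows counted from the RefSeq table, 16.3% held CAGCTG and 20.2% CAGGTG. From all of these sets 1 chromosome was left out. These are counts of letters, with no test.

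Of 22 measured T lineage transcription factors, 4 were called higher and 0 lower, 18 had a positive difference, and the list median was 0.94. *Lef1*, the HMG box partner of β-catenin, stood at -1.53, -2.80 and -3.18 in DN2 and at 5.11, 4.55 and 4.04 in DN3. This was the largest gain of any named gene among the calls, 7.07 ± 0.59 (135-fold, adjusted p = 6.77e-05). *Id3*, an inhibitor of E proteins, stood at 0.71, 0.12 and -0.03 in DN2 and at 4.99, 6.24 and 5.2 in DN3, with replicate 3 between the other DN3 arrays (5.21 ± 0.30, 37.1-fold, adjusted p = 1.58e-06). *Spib*, an Ets family factor shared with B cells and plasmacytoid dendritic cells, stood at 0.18, -0.49 and -1.29 against 4.29, 4.28 and 2.87 (4.35 ± 0.60, adjusted p = 0.00348). *Ets2* gained 2.76 ± 0.28. Not called were the early T cell factors *Gata3* (0.64, adjusted p = 0.683) and *Bcl11b* (1.03, adjusted p = 0.481), the E protein genes *Tcf3* (1.35) and *Tcf12* (1.25), and *Egr1* (3.49). With the replicate block *Tcf12* was called (adjusted p = 0.0496).

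Of 21 Notch pathway genes, *Dtx1*, a target and modulator of Notch, was the 1 called, with a list median of 0.01. It stood at -3.00, -1.28 and -3.58 in DN2 and at 1.73, 0.69 and 0.19 in DN3 (3.49 ± 0.52, adjusted p = 0.00586). *Notch3* stood at -0.08, -0.01 and -0.07 in DN2 and at 3.08, 4.83 and 0.78 in DN3, with the smallest gain in replicate 3 (2.95 ± 0.67, adjusted p = 0.0559). *Notch1* had a difference of 2.22 (adjusted p = 0.0762) and *Hes1*, a repressor induced by Notch, of 1.39 (adjusted p = 0.159). With the replicate block *Notch3* and *Notch1* were called (adjusted p = 0.0471 and 0.0465), and without DN3 replicate 3 *Notch3* was (adjusted p = 4.18e-05).

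The 15 largest rises with separated arrays also held *Plxdc1*, *Hdgfl3*, *Slc5a9* (a sugar cotransporter), *H2-Q2* (a class Ib MHC gene), *Scel* (sciellin of cornified epithelia), *Gfra1* (a GDNF co-receptor), *Spats2* and *Card10* (a CARD scaffold for NF-κB signalling), with gains from 4.19 for *Card10* to 6.92 for *Plxdc1*. *Plxdc1* stood at -0.06, 0.50 and 0.37 in DN2 and at 8.14, 7.38 and 6.06 in DN3. *H2-Q2* stood at 4.61, 0.01 and -0.01 in DN2 against 5.28, 7.23 and 6.35 in DN3, so that DN2 replicate 1 came close to the DN3 arrays. The second probe sets of *Gfra1* (1.77) and *Slc5a9* (3.47) were not called. Of the 24 rises named by the rules used here, 20 were called without each of the 6 arrays in turn, and *H2-Q2*, *Rag1*, *Tgfbr1* and *Itgae* were not.

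**Figure D2:**
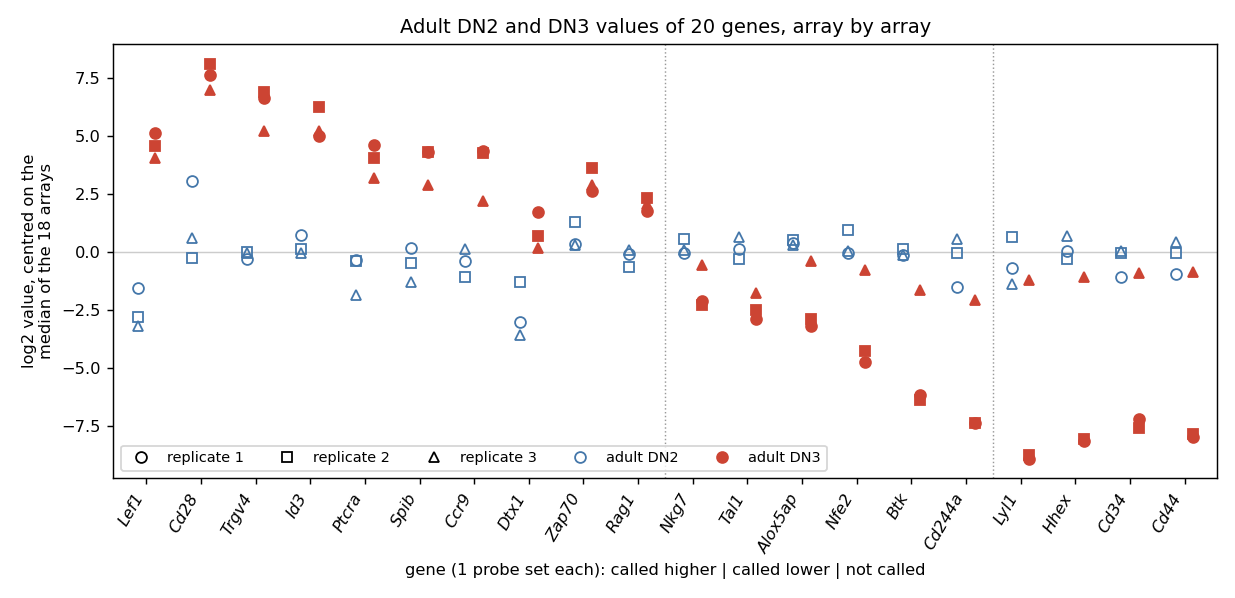
Centred log2 values (y axis) of 20 genes in the 3 adult DN2 arrays (open blue) and the 3 adult DN3 arrays (filled red), with the replicate number as the symbol. In genes that were lower, DN3 replicate 3 (triangles) lay between the DN2 arrays and the other DN3 arrays or among the DN2 arrays, as for *Cd44* at -0.86 against -7.97 and -7.84.

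Genes known from progenitor and myeloid cells were among the falls. *Tal1*, a basic helix-loop-helix factor of blood stem and erythroid cells that pairs with E proteins, stood at 0.14, -0.32 and 0.64 in DN2 and at -2.89, -2.50 and -1.76 in DN3. All DN3 arrays lay below the DN2 arrays, with replicate 3 nearest to them (-2.54 ± 0.32, 5.8-fold, adjusted p = 0.00195). *Nfe2*, a factor of erythroid cells and megakaryocytes, stood at -0.03, 0.93 and 0.03 in DN2 and at -4.73, -4.28 and -0.79 in DN3. Here replicate 3 lay just below the DN2 arrays and 3.49 units above the nearer of the other two DN3 arrays, and the difference was -3.58 ± 0.77 (adjusted p = 0.0465). *Cd244a*, a SLAM family receptor of natural killer cells and progenitors, stood at -1.52, -0.06 and 0.55 against -7.36, -7.38 and -2.07 (-5.26 ± 1.10, adjusted p = 0.0414). *Btk*, the kinase of B cell and myeloid receptors, stood at -0.15, 0.14 and -0.11 against -6.17, -6.36 and -1.66 (-4.69 ± 0.94, adjusted p = 0.0339). In both genes replicate 3 lay closer to the DN2 arrays than to the other DN3 arrays. The SEs rest on the pooled spread. Among the adult DN3 arrays the SD was 3.06 for *Cd244a* and 2.66 for *Btk*, against 0.178 and 1.09 in fetal DN3.

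In each of the other large falls replicate 3 was the DN3 array nearest to DN2. *Alox5ap*, which presents arachidonic acid to 5-lipoxygenase, stood at 0.38, 0.50 and 0.31 in DN2 and at -3.18, -2.88 and -0.40 in DN3. *Ptger2*, a prostaglandin E2 receptor, differed by -3.50 ± 0.61, *Chn2* by -3.43 ± 0.64, and the syntaxin gene *Stx3* by -3.04 ± 0.56 on 1 of 3 probe sets. *Myl4*, *Abhd4*, *Serpinb1a* and *Gpr31b* had differences of -2.95 to -2.71. The histone H3 gene *H3c4* differed by -2.77, *Golm1* by -2.61, *2810025M15Rik* by -2.49 and the cytotoxic granule gene *Nkg7* by -1.85 ± 0.38. Of the 17 falls named by the rules, *Tal1* and *Abhd4* alone were called without each of the 6 arrays in turn. The others lost their call without at least 3 arrays (highest adjusted p from 0.0893 for *Ptger2* to 0.217 for *Golm1*). The second probe set of *Abhd4* differed by -1.32 and was not called (limma adjusted p = 0.181). Nor were the second probe sets of *Cd244a* (-1.28), *Chn2* (-2.40) and *Myl4* (-0.92), while that of *Serpinb1a* was called (-3.38). With the block *Golm1* had an adjusted p of 0.0594, and *Hhex* and *Rab31* joined the falls with 0.0485 and 0.0363.

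Of 28 measured transcription factors of progenitors, 2 were called lower (*Tal1* and *Nfe2*), 0 higher, 23 had a negative difference, and the list median was -0.22. Without DN3 replicate 3, 8 were called lower, and with DN3 replicate 1 as the lone DN3 array 7. *Lyl1*, a relative of *Tal1*, stood at -0.68, 0.63 and -1.37 in DN2 and at -8.90, -8.74 and -1.19 in DN3. *Hhex*, a homeobox factor of progenitors, stood at 0.05, -0.32 and 0.67 against -8.13, -8.07 and -1.07. Replicate 3 lay within the DN2 arrays for *Lyl1* and below them for *Hhex*, and neither was called (adjusted p = 0.103 and 0.0640), whereas without it the differences were -8.35 and -8.23 (adjusted p = 5.55e-05 and 2.11e-06). *Cd34*, a sialomucin of progenitors, followed the same course: -1.06, -0.05 and 0.05 in DN2 against -7.19, -7.58 and -0.90 in DN3, and an adjusted p of 0.0842 with and 4.25e-07 without replicate 3. Of the 9 sorting markers 0 were called, and 2 (*Cd44* and *Cd34*) without replicate 3.

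The departure of DN3 replicate 3 was then measured over all probe sets. An array was taken to stand apart where it lay at least 1.8-fold beyond the nearer of the other two arrays of its group while these differed by less than 1.8-fold. Replicate 3 stood apart in 387 probe sets (1.71%), above in 285 and below in 102. This was fewer than the 1586 of DN3 replicate 1, more than the 224 of DN3 replicate 2, and fewer than the 1140 to 1490 of the DN2 arrays. In the fetal DN2 and DN3 arrays the counts were 121 to 572, so that the pooled spread mixes arrays that varied to different degrees. The departures of DN3 replicate 3 ran mostly one way. Of its 387 probe sets 368 (95.1%) lay on the side of the DN2 mean, against 69.4% for replicate 1 and 43.3% for replicate 2. Where the other DN3 arrays differed from the DN2 mean by at least 1.8-fold, this held for all 308 of 308 in replicate 3, for 296 of 360 in replicate 1 and for 22 of 50 in replicate 2. A one-sided departure was not particular to DN3 replicate 3, since DN2 replicate 1 lay on the side of the DN3 mean in 1252 of its 1490 probe sets (84.0%), and in 548 of 566 where the other DN2 arrays differed from that mean. In 147 of the 285 and 34 of the 102 replicate 3 lay within the range of the DN2 arrays.

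Projected on the line from the mean of the DN2 arrays (0) to the mean of the other two DN3 arrays (1) over all probe sets, DN3 replicates 1, 2 and 3 lay at 0.870, 1.03 and 0.460. The lines of DN3 replicates 1 and 2 end on means that hold replicate 3. Each DN2 array, held out from a line that began at the mean of the other DN2 arrays, lay at 0.554, 0.294 and 0.182. Every array thus had its own line, and the positions of DN2 and DN3 arrays cannot be ranked against each other. Over the probe sets called from the other arrays the positions were 0.746, 1.13 and 0.356 for DN3 and 0.360, 0.151 and 0.0726 for DN2. The root mean square distance of replicate 3 was 0.445 to DN3 replicate 2 and 0.690 to DN3 replicate 1, and 0.581 to 0.657 to the DN2 arrays. By distance it was thus nearest to DN3 replicate 2, and closer to each DN2 array than to DN3 replicate 1. By Pearson's r over the 22626 centred probe sets, which share the centring, the order differed: 0.744 with DN3 replicate 2, 0.479 with DN3 replicate 1 and 0.237 to 0.337 with the DN2 arrays.

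The shortfall was uneven between directions. Over the 144 rises the median distance from the DN2 mean was 2.14, 2.13 and 1.5 in DN3 replicates 1, 2 and 3, and over the 66 falls it was -2.49, -2.41 and -1.04. Replicate 3 was the DN3 array nearest to DN2 in 98 of the rises and 60 of the falls. In 17 genes in which the other two DN3 arrays lay on average more than 6 units below DN2 (median -6.73), replicate 3 had a median of -0.72 and did not go below -1.73. In 27 genes at 4 to 6 units below (median -4.81), its median was -1.01, with *Xist* at -11.43 as the exception, and in 122 genes at 2 to 4 units below (median -2.58) it was -0.70. In contrast, in 20 genes more than 4 units above DN2 (median 4.78) its median was 3.95, and in 105 genes at 2 to 4 units above (median 2.47) it was 1.65. For replicate 1 set against the mean of replicates 2 and 3, 71 genes at 2 to 4 units below (median -2.60) had a median of -4.09. For replicate 2 set against the mean of replicates 1 and 3, 87 such genes (median -2.48) had a median of -3.42. Both means hold replicate 3, so its departure in part sets these medians, and they are no control. At 2 to 4 units above, replicate 1 had a median of 2.08 in 87 genes (others 2.42). Replicate 2 there had a median of 2.73 in 75 genes (others 2.36). Replicate 3 thus fell short in the falls on a log2 scale by more than in the rises, and its falls hardly grew with the size of the fall in the other arrays.

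**Figure D3:**
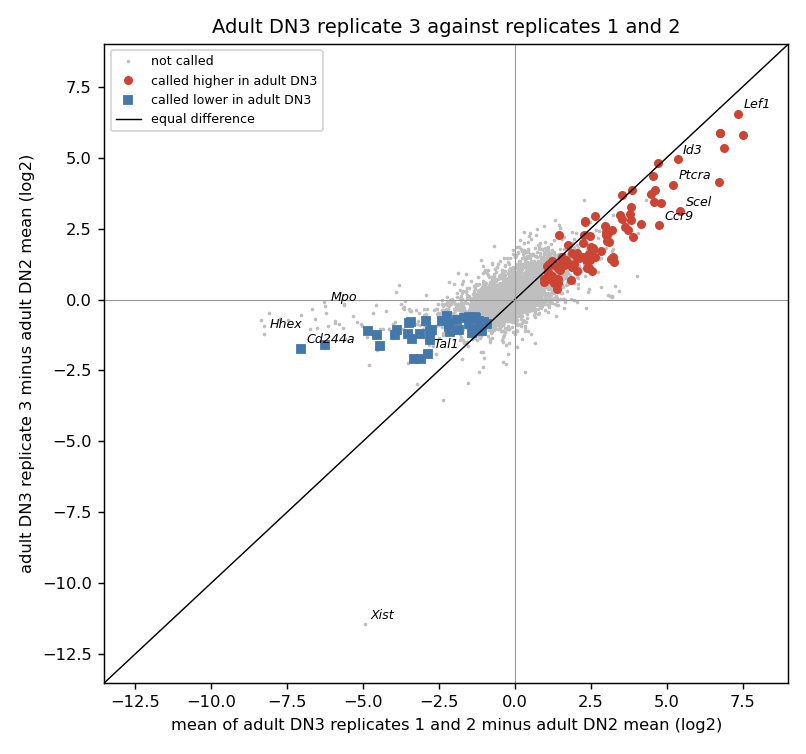
Difference from the adult DN2 mean in DN3 replicate 3 (y axis, log2) against that in the mean of DN3 replicates 1 and 2 (x axis, log2), 1 point per gene, with called genes in colour and the line of equal difference. Rises lie below but along the line, whereas the genes lowest on the x axis stay between -1.73 and -0.09 on the y axis. *Xist*, low in replicates 2 and 3, lies at the bottom.

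The genes in which replicate 3 stood furthest above the others were *Lyl1* (7.55 units above the nearer array), *Cpa3* (7.28), *Hhex* (7.0), *Cd44* (6.98), *Ifitm1* (6.51), *Cd34* (6.29), *Mpo* (5.77), *Cst7* (5.67), *Cd244a* (5.29) and *Rab31* (5.01). *Cpa3*, a carboxypeptidase of mast cells and early progenitors, stood at 1.52, 0.72 and 0.77 in DN2 and at -7.45, -6.74 and 0.54 in DN3. *Mpo*, the myeloperoxidase of granulocytes and their precursors, stood at -0.38, 1.65 and -0.24 against -5.68, -6.14 and 0.10. For both, replicate 3 lay near or within the DN2 arrays. Furthest below were *Grasp*, *Itgb4*, *Lifr*, *Asns*, *Scel*, *Ccr9*, *Vapb*, *Kcnh2*, *Ddit4* and *Ccl27a*, by 1.75 to 2.69 units. *Lifr*, the receptor for leukemia inhibitory factor, stood at -0.09, 0.01 and 0.00 in DN2 and at 2.67, 3.40 and 0.14 in DN3. *Asns*, asparagine synthetase, stood at -4.50, -4.43 and -3.28 against -1.54, -1.94 and -4.37, so that replicate 3 was among the DN2 arrays. Most of these genes thus took the DN2 side in replicate 3, and *Vapb*, at -1.82, -0.11 and -0.13 against 0.31, -0.38 and -2.22, lay below all DN2 arrays.

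Without replicate 3, 83 probe sets were added to the rises and 238 to the falls. They were chosen by leaving that array out, so its lying nearer to DN2 in them is set by the choice and the values are a description. Over the added falls the median distance from DN2 was -2.68, -2.08 and -0.52 in DN3 replicates 1, 2 and 3, and replicate 3 lay within the range of the DN2 arrays in 107 of them. Over the added rises it was 1.72, 1.61 and 0.58, and replicate 3 lay within that range in 15. Most of what replicate 3 removed from the calls was thus on the side of the falls.

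The gene lists were set beside these arrays. Averaged over the 28 progenitor factors, the DN2 arrays stood at -0.58, 0.10 and -0.25 and the DN3 arrays at -2.0, -1.67 and -0.47, so that replicate 3 lay among the DN2 arrays. Averaged over the 22 T lineage factors the values were -0.09, -0.19 and -0.45 in DN2 and 1.21, 1.58 and 1.15 in DN3, and replicate 3 lay with the other DN3 arrays. Over the pre-T cell receptor list DN3 stood at 1.01, 1.35 and 1.04 against 0.04 to 0.46 in DN2.

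**Figure D4:**
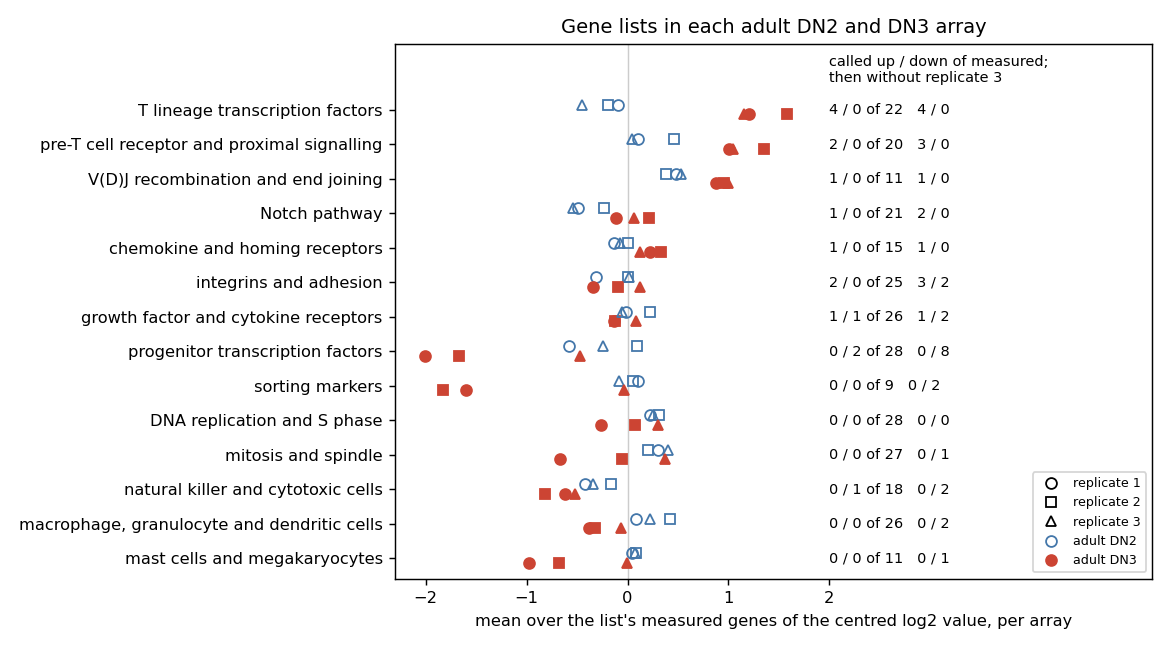
Mean centred log2 value over the measured genes of 14 gene lists (x axis) in each adult DN2 array (open blue, 3 per list) and DN3 array (filled red, 3 per list), with the replicate number as the symbol and the calls of each list as numbers. DN3 replicate 3 lay among the DN2 arrays for progenitor factors and sorting markers (-0.04 against -1.60 and -1.83) and with the other DN3 arrays for T lineage factors (1.15).

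Genes of the cell cycle were not called from all arrays. Of 28 DNA replication and 27 mitosis genes 0 were called in either direction, with 19 and 22 negative differences and medians of -0.32 and -0.46. The mean over the mitosis genes was 0.31, 0.20 and 0.40 in DN2 and -0.66, -0.05 and 0.37 in DN3, and over the replication genes 0.22, 0.31 and 0.25 against -0.26, 0.08 and 0.30. Lower mitosis genes numbered 1 with the replicate block, 1 without DN3 replicate 3 and 3 with DN3 replicate 1 as the lone DN3 array. For mitosis genes DN3 replicate 3 lay among the DN2 arrays and replicate 1 lowest. The sex-linked list had 0 called of 5 (median 1.29). Among 17 D cyclins and CDK inhibitors, 12 survival genes, 12 genes of IL-7 and Stat5 signalling, 17 of ribosome biogenesis, 15 of glycolysis, 24 of the interferon response and 18 immediate early and heat shock genes 0 were called, with medians from -0.16 (IL-7 and Stat5 signalling) to 0.49 (ribosome biogenesis). Without DN3 replicate 3, 2 interferon genes, 2 of IL-7 and Stat5 signalling and 1 immediate early gene were called lower, and with the replicate block 1 interferon gene was.

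Markers of other cells were read in the same way, without levels. Of 26 genes of macrophages, granulocytes and dendritic cells 0 were called and 24 had a negative difference (median -0.04). Their mean was 0.09 to 0.42 in DN2 and -0.39, -0.32 and -0.07 in DN3. The 11 markers of mast cells and megakaryocytes averaged 0.05 to 0.09 in DN2 and -0.97, -0.68 and -0.01 in DN3, carried by *Cpa3*, while *Ms4a2*, *Fcer1a*, *Mcpt1* and *Mcpt4* differed by at most 0.03. Of 18 natural killer and cytotoxic genes *Nkg7* was called lower, and the list averaged -0.42 to -0.16 in DN2 and -0.82 to -0.52 in DN3. In the B cell list *Rag1* was the 1 called of 14, 0 of 9 erythroid and 0 of 12 stromal genes were called, and among 9 genes of later alpha beta thymocytes *Cd28* alone was called, while *Cd4* and *Cd8a* differed by -0.07 and -0.30. Of 9 gamma delta T cell genes *Trgv4* was called higher and *Il17rb* lower. Without DN3 replicate 3, 2 genes of macrophages, granulocytes and dendritic cells, 2 natural killer genes and 1 of mast cells and megakaryocytes were called lower and 1 stromal gene higher, and with the replicate block 2 natural killer genes were lower. Whether a defining marker is absent cannot be read from centred values, and the part of other cells in the differences was not tested.

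The levels in adult ETP, the preceding stage, were set beside these without a test, since the step from ETP shares the DN2 arrays. *Ptcra* averaged -5.74 in ETP, -0.86 in DN2 and 3.96 in DN3, and *Rag1* -4.67, -0.22 and 2.06. *Tal1* averaged 3.31 in ETP, 0.15 in DN2 and -2.38 in DN3, *Ptger2* 4.62, 1.44 and -2.06, and *Stx3* 5.06, 0.95 and -2.10. *Id3* averaged -0.06 in ETP and 0.27 in DN2, *Trgv4* -0.35 and -0.11, and *Plxdc1* -0.12 and 0.27. The means of the former genes thus ran one way over the 3 stages, and those of the latter were close between ETP and DN2. Other called genes took neither course. *Ccr9* averaged 1.03 in ETP, -0.44 in DN2 and 3.59 in DN3, and *Il17rb* -1.03, 0.98 and -0.07. Among the 144 rises the ETP mean lay at least 1.8-fold below the DN2 mean in 42 and at least 1.8-fold above it in 10. In 92 it lay within 1.8-fold. Among the 66 falls the ETP mean lay at least 1.8-fold above the DN2 mean in 26 and at least 1.8-fold below it in 8. In 32 it lay within 1.8-fold.

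The same step in fetal cells used the means of other arrays and called 369 probe sets higher (1.63%) and 190 lower (0.840%). Both steps share the spread pooled over the 18 arrays, so calls made in both are not independent. The counts of signs below stand without the share of that sign over all probe sets. Of the 144 adult rises 130 had a positive fetal difference and 72 were called higher in the fetus, with a median fetal difference of 1.34. Of the 66 adult falls 59 had a negative fetal difference and 18 were called lower, with a median of -0.99. Called in the opposite direction in the fetus were 0 of the rises and 0 of the falls. *Lef1* rose by 3.67 ± 0.59 in fetal cells (adjusted p = 0.00345), *Ptcra* by 3.44 ± 0.67 and *Cd28* by 5.68 ± 0.59, and their changes did not pass the test of a difference between the ages. *Cd44* differed by -7.31 ± 1.36 in the fetus (adjusted p = 0.00877) and *Cd34* by -7.33 ± 1.24 (adjusted p = 0.00467). The adult differences from all arrays were -5.37 and -4.87 and were not called (limma adjusted p = 0.0826 and 0.0842). Without DN3 replicate 3 they were -7.72 and -7.03.

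The adult change differed from the fetal change in 124 probe sets, above it in 45 (0.199%) and below it in 79 (0.349%), and 17 of the adult rises and 2 of the adult falls were among them. *Id3* stood at -0.02, -0.03 and -0.05 in fetal DN2 and at 0.23, 0.97 and 0.01 in fetal DN3. Its adult gain of 5.21 thus had a fetal counterpart of 0.44 ± 0.30, and the difference between the ages was 4.78 ± 0.42 (adjusted p = 4.98e-05). *Scel* gained 4.66 in adult cells and stood between -0.11 and 0.09 in the 6 fetal arrays. In the other direction, *Pdlim4*, an actin-associated LIM protein gene, stood between -0.08 and 0.02 in all adult and fetal DN2 and adult DN3 arrays and at 9.08, 9.02 and 8.71 in fetal DN3. *Cd2*, an adhesion receptor of T cells, did so too, with -0.13 to 0.02 in the other 3 groups and 4.98, 5.43 and 5.75 in fetal DN3. *Cdkn1a*, the CDK inhibitor p21, differed by 1.5 ± 0.41 in adult cells, where it was not called, and fell by 1.8 ± 0.41 in fetal cells. Age and all that differs between the fetal and adult preparations cannot be told apart here.

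**Figure D5:**
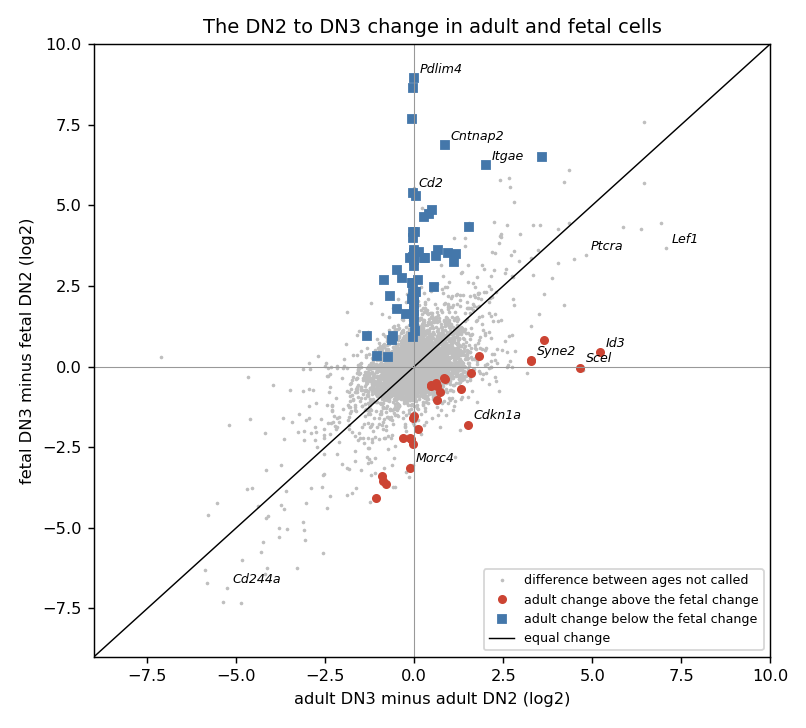
Difference between DN3 and DN2 in fetal cells (y axis, log2) against that in adult cells (x axis, log2), 1 point per gene, with genes in colour where the difference between the ages was called. *Lef1* and *Ptcra* changed in both ages, *Id3* and *Scel* lie near 0 on the fetal axis, and *Pdlim4* and *Cd2* lie near 0 on the adult axis.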

How the data were processed

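Messenger RNA of sorted adult and fetal ETP, DN2 and DN3 thymocytes was measured on Affymetrix Mouse 430A 2.0 arrays after 2 cycles of amplification, 3 arrays per group. The authors deposited log2 values made with GCRMA (version not given), centred per probe set on the median of the 18 arrays (largest row median 5e-07). No filter on low values could therefore be applied, though the methods used one. All columns were mapped from their titles (0 not mapped).

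The 18 arrays entered 1 limma fit (3.58.1, R 4.3.3) with a mean per group, no trend, and Benjamini-Hochberg adjustment over 22626 probe sets. The variance prior carried 0.971 degrees of freedom. The difference between ages was an interaction contrast. Calls needed an adjusted p under 0.05 and 1.8-fold, the fold limit of the methods. Of the probe sets, 20380 had 1 gene in GEO's annotation, 691 several and 1555 none. Symbols were updated through RefSeq (20351 matched), and each of 12393 genes took 1 probe set, those without _x_at or _s_at first and then by largest SD over the arrays. Named were the 15 largest rises and falls with separated arrays, at most 4 called genes of any list, all sorting and sex-linked genes, the 10 largest departures of DN3 replicate 3 each way, and the 8 largest differences between the ages each way. Other genes were named after their values were seen. The comparison, lists and rules were chosen with earlier results of these data known. The fit was tested on simulated data in which each probe set had the same spread in all groups. That test does not cover groups or single arrays that vary unequally, as these did.

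Titles carry replicate numbers 1 to 3. Array deviations, taken from their own group mean, correlated at 0.424, 0.189 and 0.119 between DN2 and DN3 arrays of the same number. These values were above the limit of 0.1 set for pairing, and a fit with the number as a block was added. Between arrays of different numbers the correlations were -0.289 to 0.186. The highest of them also passed the limit, so the rule does not single out the number. Alternatives were the arrays compared alone, array weights (gene by gene, since the REML estimate did not converge), centred arrays, other thresholds, a filter on span, a one-way ANOVA on the 6 arrays, the mean over a gene's probe sets, and each array left out in turn. Python 3.11.15, numpy 2.4.6, pandas 2.3.3 and matplotlib 3.10.9 were used.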

Additional observations from a re-analysis of the deposited data

Results flagged for a closer look

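The adult and the fetal step differed in 124 probe sets by the interaction test (limma, adjusted p under 0.05, at least 1.8-fold). Among the genes named above, the adult change lay above the fetal change (log2 units) by 4.78 in *Id3*, 4.69 in *Scel*, 3.30 in *Cdkn1a*, 3.10 in *Syne2* and *Lgalsl*, 3.01 in *Morc4*, 2.97 in *B3gnt5* and 2.83 in *Nfix*. In *Syne2*, which encodes a nuclear envelope protein, and *Lgalsl* the adult gain was 3.29 in each and the fetal difference 0.19. The second *Lgalsl* probe set had an adult difference of 0.72 and was not called. In *Morc4*, *B3gnt5* and *Nfix* the fetal differences were -3.14, -4.06 and -3.64, while the adult differences of -0.13, -1.09 and -0.81 were not called.

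The adult change lay below the fetal change by -8.94 in *Pdlim4*, -8.68 in *Fgfbp1*, -7.74 in *Dsc2*, -6.01 in *Cntnap2*, -5.41 in *Cd2*, -5.25 in *Ighm*, -4.37 in *Apoe*, -4.36 in *Pparg* and -4.23 in *Itgae*. Of these, *Itgae* alone was called in adult cells. Without DN3 replicate 3 the changes differed in 153 probe sets. No flag was set here for single outlying arrays, and the departures of DN3 replicate 3 are described above.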

How the results depend on the processing

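The number of probe sets called depended on the setting, for falls more than for rises: 15 of 23 alternatives gave rises within 1.5 times of 144, 6 of 23 gave falls within 1.5 times of 66, and 18 of 20 gave differences between the ages within 1.5 times of 124. Leaving out single arrays gave 71 to 219 rises, 7 to 301 falls and 85 to 167 differences between the ages. The fetal arrays and the list counts were left out or recounted after seeing the data. With the 6 arrays alone there were 2 rises and 0 falls, with the replicate block on them 0 and 0, and by a one-way ANOVA on the same 6 arrays, without the filter and the other subsets of the methods' ANOVA, 0 and 0 after Benjamini-Hochberg adjustment and 385 and 155 without it. The filter on span gave 251 and 220, and DN3 replicate 1 as the lone DN3 array 359 and 404. With the replicate block on all arrays there were 210 rises and 142 falls. Among the genes named by the rules the block ended the call of *Golm1*, made those of *Hhex* and *Rab31*, and changed no other call. Differences between the ages numbered 343 with array weights and 70 with the block on the 12 arrays compared. The counts and positions of DN3 replicate 3 moved little (302 to 401 probe sets standing apart, beside 387, or 261 with 1 probe set per gene). The causes were not tested.

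Signs turned only in genes that were not called. *Il2ra* became -0.0176 with array weights and -0.0192 with the mean of probe sets, *Xist* 1.5 with DN3 replicate 1 as the lone DN3 array, *Vapb* 0.0687 with the mean of probe sets and 1.00 with that lone array, *Pdlim4* 0.0054 with centred arrays, and *Ighm* -0.55 with the lone array. With single arrays left out *Il2ra* ranged from -0.15 to 0.37, *Cd27* from -0.0238 to 0.62, *Il7r* from -0.56 to 0.10, *Vapb* from -0.64 to 0.65, *Pdlim4* from -0.0284 to 0.0131, *Dsc2* from -0.16 to 0.0062, *Cd2* from -0.0473 to 0.0159, *Ighm* from -0.20 to 0.34 and *Pparg* from -0.0009 to 0.46. Centred values hide which genes were near background, which limits the precision of small differences.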
